A study of Mus musculus with 32 samples.

Results

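The genes described here encode the proteins of the cytosolic ribosome or carry names derived from them. They were taken from the gene names of 5 tables of normalised counts: names starting with Rpl or Rps and a digit, and Rpsa, Rplp0, Rplp1 and Rplp2, without pseudogene names ending in -ps and without the S6 kinases. The rule found 92 genes of 17440 listed in all, and 91 of them were listed in all 5 tables. Of the 92 genes, 77 encode the standard proteins, 46 of the large and 31 of the small subunit. The other 15 are like-genes and retrocopies, such as Rpl22l1, Rpl39l and Rps27l, or carry the name for another reason, such as Rps19bp1, which encodes a binding partner of the Rps19 protein. All 92 were matched to the GENCODE M21 annotation of GRCm38 by identifier, and they lie on 19 chromosomes. That annotation types Rps3a2, Rps3a3 and Rpl6l as processed pseudogenes, and Rps4l and Rpl37rt as transcribed processed pseudogenes.

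A ribosome needs its proteins in near-equal numbers, and a protein made without its partners is usually degraded. The mRNAs of ribosomal proteins therefore tend to be regulated together: their promoters often carry binding sites of ETS family factors and YY1, and their first bases form a run of pyrimidines (the TOP tract) through which the mTORC1 kinase controls translation. Some members have other known roles. Rpl5 and Rpl11 bind Mdm2 and so stabilise p53 when ribosome assembly fails, and loss of 1 copy of genes such as Rps19, Rpl5 or Rpl11 causes Diamond-Blackfan anaemia in people.

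RNA was sequenced from E14 cells, a mouse embryonic stem cell line, in 32 libraries that form 16 groups of 2. CTCF AID cells carry CTCF, the DNA-binding protein that positions chromatin loops, with an auxin-inducible degron, a tag that leads to its destruction when the auxin IAA is given. They received 500 uM IAA for 0, 12 or 24 h, or for 0 or 12 h in medium labelled as serum. CTCF AID cells that also overexpressed a control, wild-type CTCF or mutated CTCF were sequenced without and with IAA, which the labels give as 12 h. RAD21 AID cells, with the degron on the cohesin subunit RAD21, received 1 uM 5-Ph-IAA for 0, 12 or 24 h. A further pair of groups, also labelled CTCF AID, had a control hairpin or a hairpin directed at Chd4, which encodes the remodelling ATPase of NuRD. All cells grew in serum-free medium with LIF and the inhibitors PD0325901 and CHIR99021 by the growth protocol, which does not separate out the serum groups. The titles and treatment labels disagree for 4 libraries: mutated CTCF without IAA is labelled as treated, and wild-type CTCF with IAA as untreated. Groups follow the titles, and the results that use those libraries carry this doubt. The labels do not say which mutation was used, how the overexpressed gene was driven, or whether replicates were separate cultures, so p-values measure only the spread between these libraries, which may be technical.

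Summed values per library ran from 15364584 to 19642332. They were normalised by the authors and are not read depths, which are unknown here. Values of Ctcf were higher, not lower, after IAA (3300 and 3253 at 0 h against 4148 and 3881 at 12 h), and a degron acts on the protein, so this mRNA does not check the degradation. Chd4 was 9923 and 9526 with the control hairpin and 3379 and 3729 with the Chd4 hairpin. Pluripotency markers were high in all groups, with summed values of 57280 to 127600 over 8 genes.

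Ribosomal protein mRNA made up 5.24% to 6.7% of the summed values of a library. In the CTCF AID table the share was 5.51% ± 0.048 (SD, n = 2) at 0 h, 5.31% ± 0.052 at 12 h and 5.29% ± 0.067 at 24 h, and the treated libraries did not overlap the untreated ones. The library totals rose, from 15558928 and 15513445 at 0 h to 16035450 and 15910829 at 12 h and 16039750 and 15907263 at 24 h. A higher total by itself lowers a share. The median log2 difference over the 92 members was 0.004 at 12 h and -0.013 at 24 h. In serum the share was 6.42% ± 0.016 before and 6.44% ± 0.0033 after IAA, a difference near the spread between libraries. With IAA it was lower in all 3 overexpression backgrounds: 6.09% ± 0.0034 against 6.47% ± 0.044 in the control, 6.04% ± 0.032 against 6.44% ± 0.027 with wild-type CTCF, and 6.11% ± 0.017 against 6.26% ± 0.01 with mutated CTCF. After RAD21 degradation the share was higher, at 6.61% ± 0.0065 (12 h) and 6.67% ± 0.043 (24 h) against 6.48% ± 0.039. The Chd4 hairpin gave 6.07% ± 0.11 against 6.6% ± 0.019. The smallest two-sided p of an exact permutation test on 2 and 2 libraries is 0.333, so such a test could not pass the threshold and none is given.

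**Figure D1:**
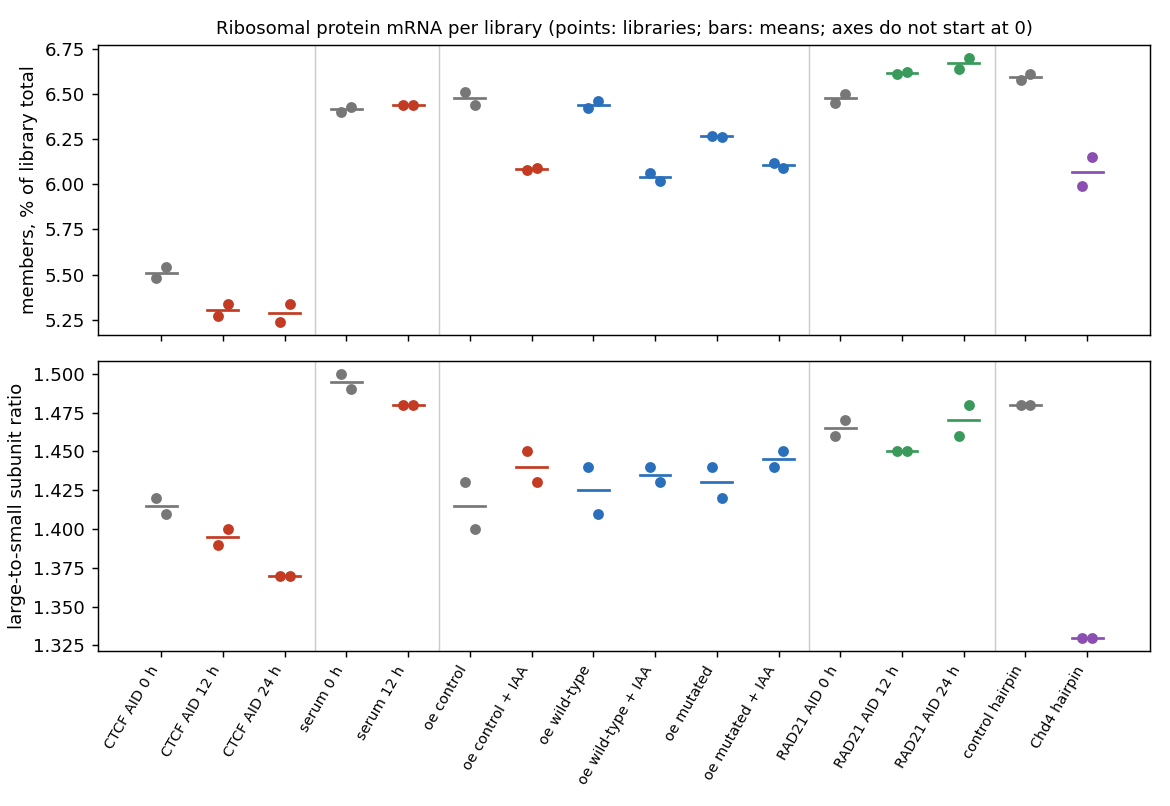
The upper panel plots the members' summed values as a percentage of the library total, and the lower panel the ratio of summed large-subunit to summed small-subunit values, for each of the 16 groups; points are libraries, bars are means, vertical lines separate the 5 tables, and neither axis starts at 0. The large-to-small ratio was 1.33 in both Chd4 hairpin libraries and 1.48 in both control hairpin libraries.

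The balance of the subunits also differed in some comparisons. The ratio of large-subunit to small-subunit values over the 77 standard genes was 1.42 and 1.41 at 0 h of CTCF degradation, 1.39 and 1.4 at 12 h, and 1.37 in both libraries at 24 h. With the Chd4 hairpin it was 1.33 in both libraries against 1.48 in both controls. These ratios compare libraries, not the amounts of the proteins, since gene lengths enter every sum.

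After 12 h of CTCF degradation most ribosomal protein mRNAs were near their untreated level, and a few large-subunit mRNAs were lower. Of 92 members, 8 fell and 2 rose (limma, Benjamini-Hochberg adjusted p under 0.05), against 8.4% of all 13699 genes called lower, 9.39% called higher and 17.8% called either way, so the share of falls was near the background. All 92 members passed the filter on low values here. All 8 that fell were standard genes, 6 of the large and 2 of the small subunit. The median log2 difference was -0.02 over the large subunit and 0.01 over the small subunit, beside 0.001 over all genes. Among the falls were those of Rpl36, Rpl36a, Rplp0, Rpl5, Rps10 (-0.17), Rpl17 (-0.13) and Rpl7a (-0.10). The rises were those of Rpl22l1 and Rpl23a (0.11). Leaving out any 1 of the 4 libraries compared left 1 or 2 members called, so the count rests on having both replicates of both groups. With quantile normalisation 16 members were called lower and 1 higher, and the call of Rpl23a was lost (adjusted p = 0.0522). Of the markers of other cells, the 3 fibroblast genes listed summed to 241 and 252.9 at 0 h, 106.3 and 117.2 at 12 h, and 94.05 and 103.4 at 24 h, and Pdgfrb carried most of each sum. The neural markers summed to 1922 and 1978 at 0 h, 2568 and 2479 at 12 h, and 2244 and 1996 at 24 h, with Tubb3 higher and Sox1 lower than at 0 h in every treated library. Their part in the ribosomal protein results was not tested.

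At 24 h more members were called, in both directions. Of the 92, 19 fell and 11 rose, against 10.8% of all genes called lower, 11.7% called higher and 22.5% called either way. The large subunit held 15 of the falls and 4 of the rises, while the small subunit held 4 falls and 6 rises. Among the falls were Rpl37 (-0.28), Rps20 (-0.28), Rpl21 (-0.26), Rpl31 (-0.25) and Rpl27 (-0.24). Rps12, a small-subunit protein, rose by a log2 difference of 0.39 (SE 0.066, adjusted p = 0.00698), from 6074 and 6146 at 0 h to 7422 and 8603. Rps3a3, a processed pseudogene close to the small-subunit gene Rps3a1, rose by 0.39 (SE 0.064, adjusted p = 0.0064). Rps19 had values of 5104 and 4943 at 0 h, 5104 and 5244 at 12 h, and 6418 and 5858 at 24 h. Its 24 h libraries lay above all others, with a rise of 0.29 (SE 0.052, adjusted p = 0.00872). Without replicate 1 or 2 of the 0 h group 14 or 10 members were called, without replicate 2 of the 24 h group 19, and quantile normalisation gave 26 lower and 8 higher. Between 12 h and 24 h, 0 members were called by limma (36 at an unadjusted p under 0.05), and 0.146% of all genes were, 0.0876% higher and 0.0584% lower.

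**Figure D2:**
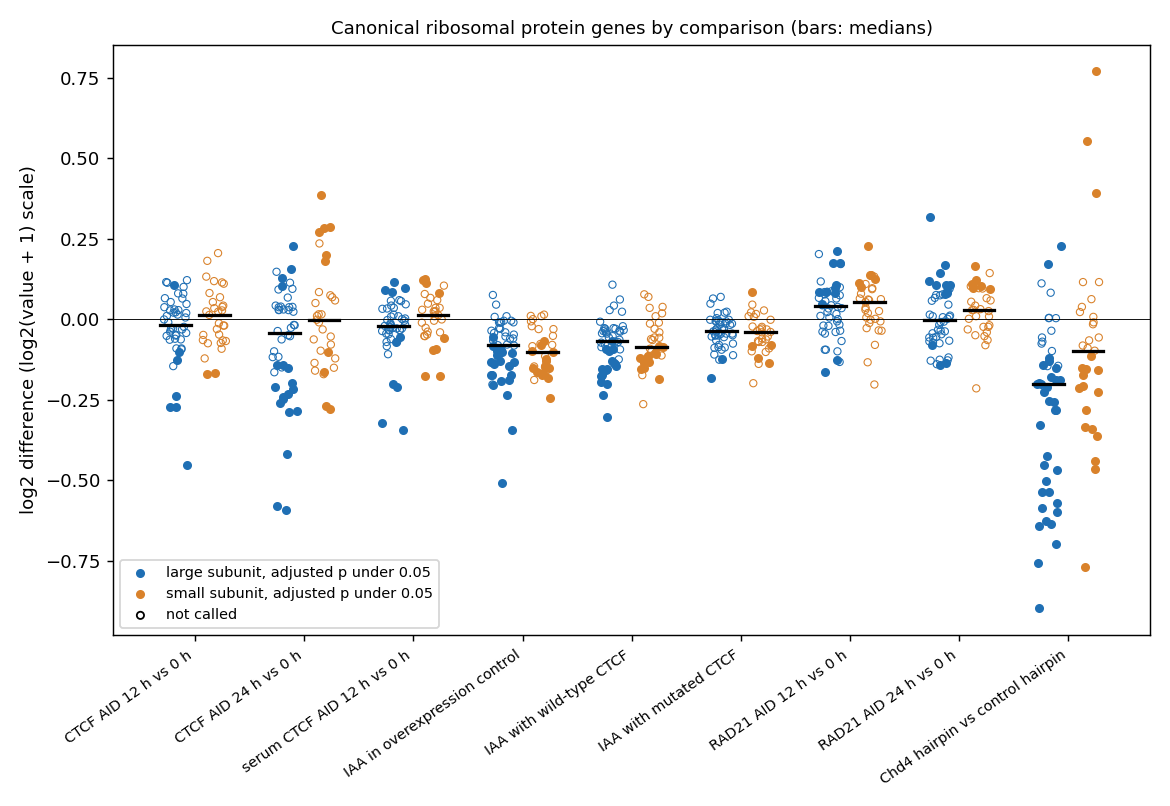
Each point is 1 of the 77 standard genes, plotted as its log2 difference on the log2(value + 1) scale in 9 comparisons; blue is the large and orange the small subunit, filled points have an adjusted p under 0.05, and black bars are medians. The points spread to both sides after 24 h of CTCF degradation, and with the Chd4 hairpin the median of the large subunit was -0.20 and that of the small subunit -0.10.

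Degradation of CTCF for 12 h was measured in 3 tables that share no library: CTCF AID, CTCF AID in serum, and the overexpression control. Of the 77 standard genes, 5 were called lower in all 3, or 6.49%, beside 2.22% of the 12799 genes tested in all 3 tables and 1 of 79 mitochondrial ribosomal protein genes. None was called higher in all 3 (1.43% of all genes were). Described here are 4 of them: Rpl36 and Rpl36a, which encode small basic proteins of the large subunit, Rplp0, the scaffold of the stalk that recruits translation factors, and Rpl5. They were picked out after these calls were seen. In the CTCF AID table the 12 h calls of Rpl36 and Rpl36a were lost without any 1 of the 4 libraries and that of Rpl5 in 3 of 4 cases, while Rplp0 kept its call.

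Rpl36 (chr17:56613416-56614243, plus strand, GRCm38) had values of 2051 and 2190 at 0 h, 1490 and 1607 at 12 h, and 1251 and 1579 at 24 h. The treated libraries lay below both untreated ones. The log2 difference was -0.45 (SE 0.109, adjusted p = 0.0301) at 12 h and -0.59 (SE 0.109, adjusted p = 0.00949) at 24 h. In serum its values were 4090 and 4063 before and 3277 and 3147 after IAA, a difference of -0.34 (SE 0.034, adjusted p = 0.00074). In the overexpression control they were 6862 and 6177 without and 4502 and 4653 with IAA, a difference of -0.51 (SE 0.053, adjusted p = 6.5e-05). The groups did not overlap in any of these comparisons. The 24 h call was lost without replicate 2 of the 0 h group (-0.54, adjusted p = 0.0638).

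Rpl36a (chrX:134585654-134588062, plus strand) had values of 2903 and 2986 at 0 h, 2432 and 2442 at 12 h, and 2017 and 1929 at 24 h. The log2 difference was -0.27 (SE 0.048, adjusted p = 0.0102) at 12 h and -0.58 (SE 0.048, adjusted p = 0.000385) at 24 h, when both libraries lay below every 12 h value. In serum it went from 6300 and 6234 to 5000 and 5035 (-0.32, SE 0.025, adjusted p = 0.0003), and in the overexpression control from 6411 and 6477 to 5016 and 5144 (-0.34, SE 0.035, adjusted p = 4.87e-05). Its autosomal copy Rpl36al was not called in any of these 4 comparisons, with log2 differences of 0.002, -0.10, 0.004 and -0.14.

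Rplp0 (chr5:115559467-115563727, plus strand) had values of 20880 and 21160 at 0 h, 17360 and 17480 at 12 h, and 15500 and 15960 at 24 h. The differences were -0.27 (SE 0.029, adjusted p = 0.00138) and -0.42 (SE 0.029, adjusted p = 0.000188). In serum the values went from 20440 and 20640 to 18200 and 17520 (-0.20, adjusted p = 0.000985), and in the overexpression control from 25770 and 25100 to 22670 and 21850 (-0.19, adjusted p = 0.000937). The mRNAs of the other 2 stalk proteins were not called lower in these 4 comparisons. Rplp1 rose at 24 h, from 8258 and 8189 to 9460 and 9793 (0.23, SE 0.035, adjusted p = 0.00513), and in serum (0.09, adjusted p = 0.0304). Rplp2 was not called in either table, with 4094 and 4042 at 0 h and 4231 and 4584 at 24 h. In the overexpression control Rplp1 had 12690 and 11620 without and 12760 and 12850 with IAA, and Rplp2 7772 and 8465 against 7884 and 7686. Rplp2 was called lower with IAA in cells with wild-type CTCF (-0.20, adjusted p = 0.00591).

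Rpl5 (chr5:107900502-107909005, plus strand) went from 11180 and 10130 at 0 h to 9100 and 8932 at 12 h and 8836 and 8591 at 24 h. The differences were -0.24 (SE 0.05, adjusted p = 0.0185) and -0.29 (SE 0.05, adjusted p = 0.00758). In serum the difference was -0.21 (SE 0.019, adjusted p = 0.000559) and in the overexpression control -0.19 (SE 0.039, adjusted p = 0.00525). Rpl11, whose protein forms a complex with Rpl5, had values of 7046 and 7451 at 0 h and 7332 and 7267 at 12 h and was not called there. Exons of Fam69a on the other strand and of Snord21 on the same strand overlap Rpl5, and strand use in counting is not given in the sources used here. Exons of other genes overlap none of Rpl36, Rpl36a and Rplp0.

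**Figure D3:**
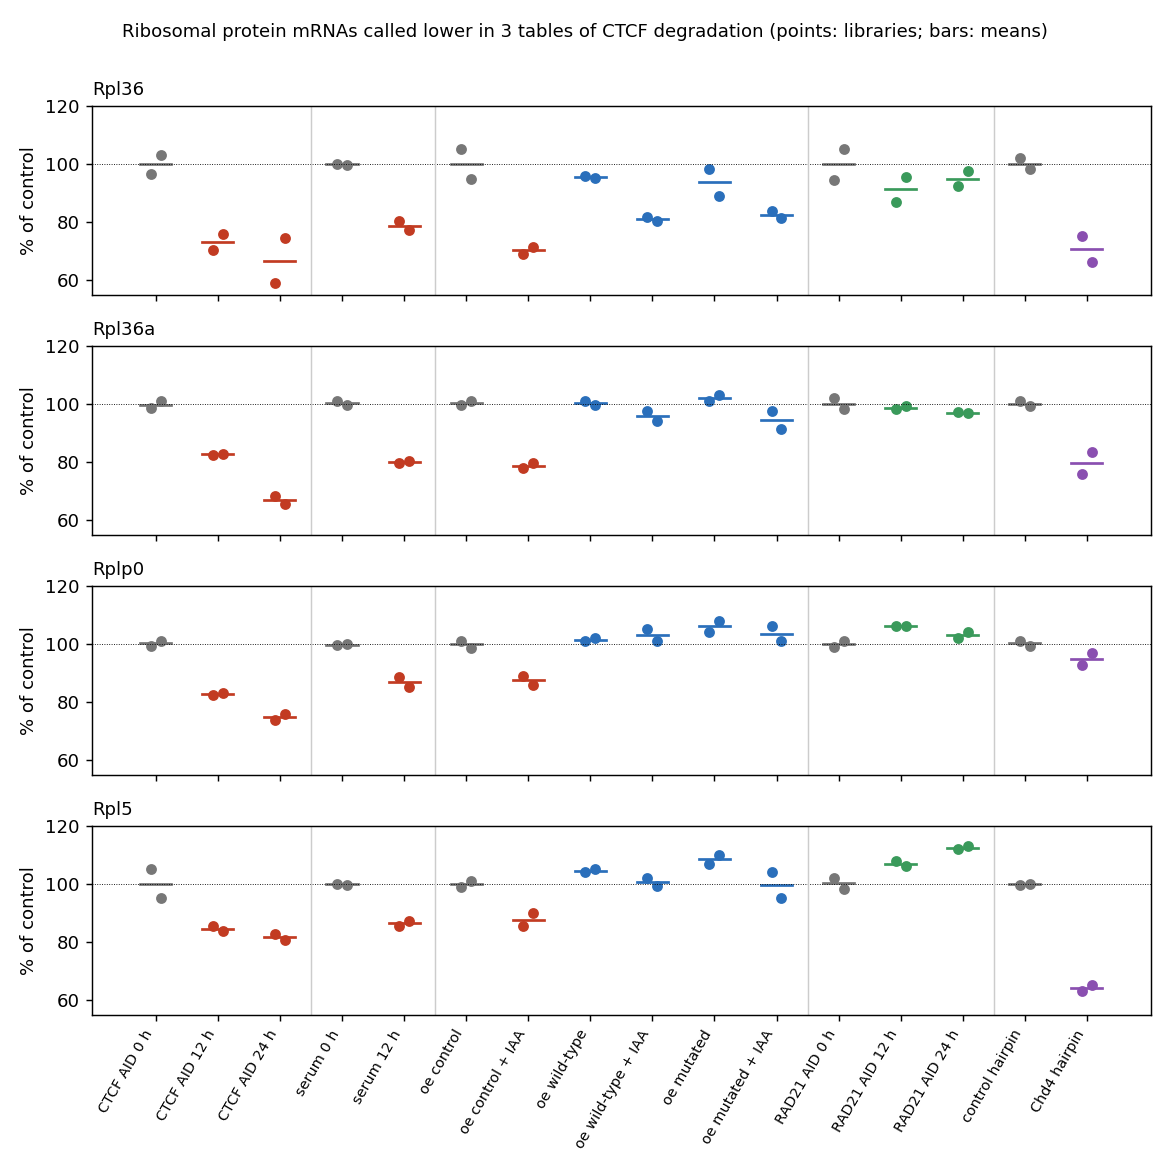
Each panel plots 1 gene as a percentage of the mean of the untreated or control hairpin group of the same table, per library (points) with group means (bars), over the 16 groups; grey marks those reference groups, red CTCF degradation without an overexpressed CTCF, blue overexpressed CTCF, green RAD21 degradation and purple the Chd4 hairpin. The y axis runs from 55% to 120%, and every red point lies below 100%.

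Reads of these mRNAs can be hard to place, because processed pseudogenes carry near-identical copies. The share of 50-base stretches of the transcript that also occur in another annotated gene was 81.1% for Rpl36, 85.5% for Rpl36a, 48.6% for Rpl5 and 41.8% for Rplp0. Over the 77 standard genes the median was 49.3%, and 76 shared at least 1 stretch. When each of these 4 rows was summed with every listed gene that shares a stretch with it, all 4 were still called lower in all 4 comparisons of CTCF degradation. In the CTCF AID table, however, Rpl36 itself made up 99.1% to 99.6% of its sum and Rpl36a 95.5% to 98.1%. For these 2 genes the sum nearly repeats the row and is little check on read placement. Rpl5 made up 50.3% to 52.6% of its sum and Rplp0 67% to 69.4%. The summed log2 differences at 12 h were -0.45 (Rpl36), -0.29 (Rpl36a), -0.25 (Rplp0) and -0.23 (Rpl5).

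The promoters of Rpl5, Rplp0 and Rpl36a were among the 68 members found in RefSeq's promoter table (GRCm38.p6, 250 bases before to 50 after the start). The letters AGGGGGC, the core of a common CTCF motif, were searched on both strands, as was the looser form AGNGGGC, which includes it and was added after the sequences were seen. Stretches around the matches are shown for Rpl5 and Rplp0, with the match in capitals. The Rpl5 stretch is chr5:107900450-107900496 and the Rplp0 stretch chr5:115559275-115559321, both on the plus strand, and the matches start 58 and 172 bases before the RefSeq start.
Rpl5: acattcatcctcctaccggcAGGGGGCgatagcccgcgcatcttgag
Rplp0: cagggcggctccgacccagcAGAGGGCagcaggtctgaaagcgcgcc
Of 57 standard genes with a promoter, 7 (12.3%) held AGGGGGC, beside 11.9% of 27025 promoters of all genes, and 19 (33.3%) held AGNGGGC, beside 28.3%. These shares are close to the background. The Rpl36a window held neither form. The letters CCGGAAG, an ETS site, were in 24 of the 57 (42.1%) beside 9.9% of all promoters, and ATGGCGG, a YY1 site, in 9 (15.8%) beside 4.7%. E-box letters (CACGTG) were in 6 (10.5%) beside 8.1%, and TATAAA in 6 (10.5%) beside 15.7%. A run of at least 8 pyrimidines from 10 bases before to 50 after the start was found in 42 of the 57 (73.7%), beside 24% of all promoters. Such runs are shown in capitals for Rpl36a (chrX:134585675-134585699) and for the like-gene Rpl22l1 (chr3:28805503-28805524), 2 members whose mRNA moved in opposite directions after 12 h in the CTCF AID table. The Rpl22l1 run starts 1 base after the RefSeq start. That of Rpl36a starts 27 bases after it, and so is not formed by the first bases of the annotated mRNA.
Rpl36a: ctctagCCTCTCTCTTTCCgagctg
Rpl22l1: agcccgTTCTCTTCCCacggct
The mRNA of Rpl22l1 rose there by 0.30 on the log2 scale, where Rpl36a had a difference of -0.27, and Rpl22l1 was also higher in serum. In the overexpression control both were lower with IAA, Rpl22l1 by a difference of -0.14 (adjusted p = 0.0266; 0.0624 in a fit of the groups compared alone).

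In serum, 12 of 91 members fell and 9 rose after 12 h of IAA, against 9.25% of all genes called lower, 7.73% called higher and 17% called either way. Beside the genes above, Rps4x, the X-linked small-subunit gene, fell by 0.17 on the log2 scale (adjusted p = 0.000657), and Rps27l, a like-gene known as a p53 target, went from 3242 and 3205 to 2961 and 2942 (-0.13, adjusted p = 0.0362; 0.0699 with quantile normalisation). Of 12 other genes that report on p53, 10 were lower in this comparison and 0 higher. Other comparisons of CTCF degradation differed. Outside serum 2 were higher and 1 lower at 12 h, and 5 higher and 1 lower at 24 h. With IAA 3 were higher and 4 lower in the overexpression control and with wild-type CTCF, and 1 higher and 4 lower with mutated CTCF. A link to Rps27l was not tested. In serum Rps9 rose by 0.12 (SE 0.022, adjusted p = 0.00882) and Rps19 by 0.12 (SE 0.023, adjusted p = 0.0123). Pluripotency markers fell as well, with 6 of 8 called lower and summed values of 67830 and 68030 before and 57280 and 58210 after IAA, and their part in the ribosomal protein results was not tested. Rpl22l1 rose by 0.18 (adjusted p = 0.0259). Quantile normalisation turned the balance, with 20 members higher and 9 lower. Without serum IAA replicate 1 the count was 6 and without replicate 2 it was 8.

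In the overexpression control, many members were lower with IAA by small amounts. Of 92 members 37 fell and 3 rose, against 12.5% of all genes called lower, 12.8% called higher and 25.3% called either way. The falls were 21 of 46 large-subunit and 14 of 31 small-subunit genes, and 69 of the 77 standard genes had a log2 difference below 0, with a median of -0.08 beside -0.002 over all genes. Among the other falls, Rps6, the S6 kinase substrate, went from 29130 and 28940 to 25540 and 25970 (-0.17, SE 0.018, adjusted p = 5.65e-05). Rpl3 fell by 0.24, Rps18 by 0.15 and Rpl11 by 0.13. The fall of Rpl3 was larger than those of Rpl5 (-0.189) and Rplp0 (-0.192) in this comparison. The 3 rises were like-genes or the binding partner: Rpl39l from 289.9 and 302.1 to 407.8 and 431 (0.50, SE 0.119, adjusted p = 0.0109), Rps19bp1 by 0.31 (SE 0.095, adjusted p = 0.0351; 0.114 in a fit of these groups alone) and Rpl10l by 0.19 (adjusted p = 0.0138). The summed neural markers also differed, at 2191 and 2260 without and 3694 and 3575 with IAA (2 of 3 tested markers called higher, as with wild-type and with mutated CTCF), and their part in the result was not tested. A fit of these 2 groups alone called 20 members lower and 2 higher, and without replicate 1 or 2 of the IAA group 21 or 22 were called in all.

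Cells with overexpressed wild-type CTCF showed a similar broad shift with IAA. Here 30 members fell and 1 rose, against 10.3% of all genes called lower, 11.1% called higher and 21.4% called either way, with a median of -0.07 over the standard genes. Of these falls, 20 were also among the 37 of the control, which is 54.1% of the control's falls and 66.7% of those with wild-type CTCF. Over all genes the shares were close to these, at 52.4% and 63.8%. The 20 include Rpl3 (-0.30), Rps18 (-0.18), Rps6 (-0.11), Rpl11 (-0.10) and Rpsa (-0.13), the laminin receptor precursor. Without replicate 2 of the group without IAA 18 members were called, and without replicate 1 or 2 of the IAA group 19 or 17. With mutated CTCF 6 fell and 2 rose, against 7.92% called lower, 8.31% called higher and 16.2% called either way. The share of falls, 6.52%, was near the background. The direction was still mostly downward there. Of the 77 standard genes 63 had a log2 difference below 0, with a median of -0.04 beside -0.004 over all genes. By limma 27 of the 92 members had an unadjusted p under 0.05 with mutated CTCF. Without replicate 1 or 2 of that group without IAA 4 or 5 were called, and without replicate 2 with IAA 1. Rps15 fell there by 0.14 (SE 0.031, adjusted p = 0.0136).

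These genes did not behave alike when CTCF was overexpressed. Rplp0 had values of 25680 and 25930 with wild-type CTCF and 26710 and 25780 when IAA was added, and 26370 and 27450 with mutated CTCF against 26980 and 25810, so the groups overlapped. Rpl36a had 6500 and 6409 against 6289 and 6070 with wild-type CTCF (-0.06, adjusted p = 0.227) and 6512 and 6612 against 6283 and 5891 with mutated CTCF (-0.11, adjusted p = 0.0561). Rpl5 differed by -0.05 (adjusted p = 0.382) and -0.12 (adjusted p = 0.0539). The sums over genes that share a 50-base stretch were called lower where these rows were not for Rpl5 with wild-type CTCF (-0.12, adjusted p = 0.0142), for Rpl5 with mutated CTCF (-0.13, adjusted p = 0.0093) and for Rpl36a with mutated CTCF (-0.13, adjusted p = 0.0369). Rpl36 was called lower in both, from 6249 and 6202 to 5339 and 5237 (-0.23, adjusted p = 0.0103) and from 6417 and 5810 to 5456 and 5312 (-0.18, adjusted p = 0.0412). The call with mutated CTCF was lost in a fit of the groups compared alone (adjusted p = 0.0642) and without replicate 1 of the group without IAA (-0.11, adjusted p = 0.256) or either IAA library, and that with wild-type CTCF was lost in 2 of 4 cases of a library left out.

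The difference between these IAA effects and that of the control was tested as an interaction over all genes. With wild-type CTCF it was called for 3 members, all upward, against 1.1% of all genes called higher, 0.309% called lower and 1.41% called either way. Of these, Rpl36a (0.28, SE 0.049, adjusted p = 0.0185) and Rplp0 (0.22, SE 0.043, adjusted p = 0.0334) are described here. With mutated CTCF it was called for Rpl36a (0.23, SE 0.049, adjusted p = 0.0424), against 1.05% of all genes called higher, 0.581% called lower and 1.64% called either way. Both interactions use the same control libraries, and the control's IAA effect is also 1 of the 3 on which these genes were picked. The call of Rpl36a with mutated CTCF was lost when its row was summed with genes that share a 50-base stretch (0.23, adjusted p = 0.0622), while the summed Rplp0 was then called (0.18, adjusted p = 0.0215; its own row gave 0.165, adjusted p = 0.109). Rpl36a lost its interaction with mutated CTCF in a fit of the groups compared alone (adjusted p = 0.0888). The calls of Rpl36a and Rplp0 in these interactions were each lost in several fits that left out 1 library.

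Overexpression without IAA moved few members. With wild-type CTCF 0 were called by limma (10 at an unadjusted p under 0.05), against 0.502% of all genes called higher, 0.395% called lower and 0.897% called either way, and 1 was called without replicate 2 of the control. With mutated CTCF 2 rose and 1 fell, against 3.31% called higher, 2.24% called lower and 5.55% called either way: Rpl35 (0.22, SE 0.027, adjusted p = 0.00132), from 8748 and 9049 to 10200 and 10540, Rps23 (0.13, adjusted p = 0.012) and Rpl13 (-0.16, adjusted p = 0.0267). A fit of these groups alone kept the call of Rpl35, and those of Rps23 (adjusted p = 0.0667) and Rpl13 (adjusted p = 0.151) were lost. Without replicate 2 of the control 7 were called, and quantile normalisation gave 10 lower and 2 higher. When both received IAA, mutated and wild-type CTCF cells differed in 0 members by limma (21 at an unadjusted p under 0.05), against 1.08% of all genes called higher, 1.18% called lower and 2.25% called either way. The labels of 4 of these libraries are in doubt, as given above.

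After RAD21 degradation more members rose than fell. At 12 h 16 of 92 rose and 3 fell, against 6.66% of all genes called higher, 6.35% called lower and 13% called either way. At 24 h 18 rose and 8 fell, against 6.54%, 7.16% and 13.7%. The changes were small: the median over the standard genes was 0.04 at 12 h and 0.01 at 24 h. Rps19 had 7558 and 7153 at 0 h, 8670 and 8541 at 12 h and 8007 and 8491 at 24 h, with rises of 0.23 (SE 0.039, adjusted p = 0.0142) and 0.17 (SE 0.039, adjusted p = 0.0359). Rpl30 rose at 12 h by 0.21 (SE 0.032, adjusted p = 0.00917), from 5351 and 5325 to 6126 and 6249, and had 5501 and 5289 at 24 h. The 24 h call of Rps19 was lost in a fit of the groups compared alone (adjusted p = 0.0647). Without 1 of the libraries compared, 4 to 7 members were called at 12 h and 7 to 10 at 24 h. Primitive endoderm markers summed to 102.2 and 98.55 at 0 h, 150.6 and 146.9 at 12 h and 151.8 and 119.4 at 24 h, with 0 of 4 tested called by limma at either time (1 at an unadjusted p under 0.05). Eomes, the 1 trophoblast marker listed, went from 217.2 and 233.1 to 142.5 and 152.7 at 24 h and was called lower there. Of 8 pluripotency markers 4 were called lower and 1 higher at 12 h. The part of these markers in the result was not tested.

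None of the 4 genes described above was called lower after RAD21 degradation. Rpl5 rose, from 13560 and 13120 at 0 h to 14450 and 14100 at 12 h (0.10, adjusted p = 0.0421; 0.0679 in a fit of these groups alone) and 14950 and 15030 at 24 h (0.17, adjusted p = 0.00711). Rplp0 rose at 12 h by 0.08 (adjusted p = 0.0261). Rpl36 had 3966 and 4415 at 0 h, 3645 and 4001 at 12 h and 3869 and 4086 at 24 h, and the groups overlapped. Rpl36a differed by -0.02 and -0.04 at 12 h and 24 h. CTCF and RAD21 degradation were measured in different tables with different auxins, so the difference between them was not tested.

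Like-genes made up 5 of the 8 falls at 24 h of RAD21 degradation. Rps4l, an autosomal relative of Rps4x annotated as a transcribed processed pseudogene, had 9048 and 9217 at 0 h and 7170 and 7200 at 24 h (-0.35, SE 0.024, adjusted p = 0.000566). Rpl39l, known from testis, had 618.9 and 646 at 0 h and 496.4 and 473.4 at 24 h (-0.38, SE 0.078, adjusted p = 0.0231). Rpl10l, a testis-expressed copy of the X-linked Rpl10, went from 2727 and 2868 to 2223 and 2347 (-0.29, adjusted p = 0.0109), Rpl36al fell by 0.28 (adjusted p = 0.00826) and Rpl7l1, a nucleolar assembly factor, by 0.17 (adjusted p = 0.0194). Of their standard relatives Rps4x rose by 0.12 (adjusted p = 0.00548), and Rpl10 (0.002), Rpl39 (-0.13) and Rpl36a (-0.04) were not called. Between 12 h and 24 h 9 members rose and 13 fell, against 7.67% called higher, 8.26% called lower and 15.9% called either way. Rpl3 fell by 0.16 at 12 h and stood 0.28 higher at 24 h than at 12 h (SE 0.024, adjusted p = 0.000728), and Rpl38 differed by -0.31 (SE 0.07, adjusted p = 0.0272). Rps4l differed by -0.26 (adjusted p = 0.00102). Without 1 of the 4 libraries 7 to 11 members were called, and with quantile normalisation 16 rose and 9 fell.

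The Chd4 hairpin went with the broadest change of ribosomal protein mRNAs, in a table in which most genes changed. Of 92 members 53 fell and 8 rose, against 33.8% of all genes called lower, 33.5% called higher and 67.4% called either way, so the share called was near the background while the direction was not even. The large subunit held 32 falls and 2 rises of 46, with a median of -0.20, and the small subunit 15 falls and 3 rises of 31, with a median of -0.10, beside 0.006 over all genes. With quantile normalisation 30 members fell and 27 rose, and the median over members was -0.005, so the direction of the general shift depended on this choice; trimmed-mean scaling gave 53 falls and 9 rises. No standard gene changed 2-fold.

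Rpl22l1 had the largest fall of any member, from 6637 and 6405 with the control hairpin to 1727 and 1651 with the Chd4 hairpin (-1.95, SE 0.049, adjusted p = 1.63e-06). Its relative Rpl22, whose protein is known to repress Rpl22l1 expression, fell too, from 10150 and 10180 to 6609 and 7101 (-0.57, SE 0.047, adjusted p = 7.01e-05). Rpl3, which reaches into the catalytic centre of the ribosome, went from 21370 and 21600 to 11120 and 11970 (-0.90, SE 0.046, adjusted p = 1.05e-05). Rps20 went from 19230 and 19330 to 10900 and 11760 (-0.77), Rpl10a from 17070 and 16940 to 9980 and 10170 (-0.76), and Rplp2 from 9800 and 10420 to 6637 and 5858 (-0.70). Rpl5 went from 21150 and 21230 to 13370 and 13810 (-0.64, SE 0.038, adjusted p = 1.74e-05), Rpl36 fell by 0.50 and Rpl36a by 0.33. The row of Rplp0 (-0.07) was not called, while its sum with genes that share a 50-base stretch was called lower (-0.12, SE 0.034, adjusted p = 0.0153). Hairpin and control libraries did not overlap for any member called. With 2 libraries per group a small adjusted p makes this likely for any called gene, so it adds no support. The share over all genes was not counted.

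Of the 8 rises 3 were standard small-subunit genes, 2 were the large-subunit genes Rpl32 (0.23) and Rpl34 (0.17), and 3 were the like-genes Rps27rt, Rps27l and Rps4l (0.19). Rps12 had 6728 and 6865 with the control and 11400 and 11790 with the Chd4 hairpin (0.77, SE 0.041, adjusted p = 1.17e-05). Rps28 had 5642 and 5709 against 8336 and 8346 (0.56, adjusted p = 3.48e-05). Rps27 had 6935 and 6581 against 8187 and 9600 (0.39, adjusted p = 0.00339). The row Rps27rt, which shares 91.1% of its 50-base stretches with other genes, chiefly Rps27, rose from 107.3 and 99.54 to 169 and 231.9 (0.93, SE 0.19, adjusted p = 0.00419), a call lost without replicate 2 of the Chd4 hairpin (0.70 on the log2 scale, adjusted p = 0.0705). Rps27l rose by 0.22 (adjusted p = 0.00563), and 9 of the 12 other p53 reporters were called higher. Exons of Kank3 on the other strand overlap Rps28, and exons of small nucleolar RNA genes on the same strand overlap Rps12.

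**Figure D4:**
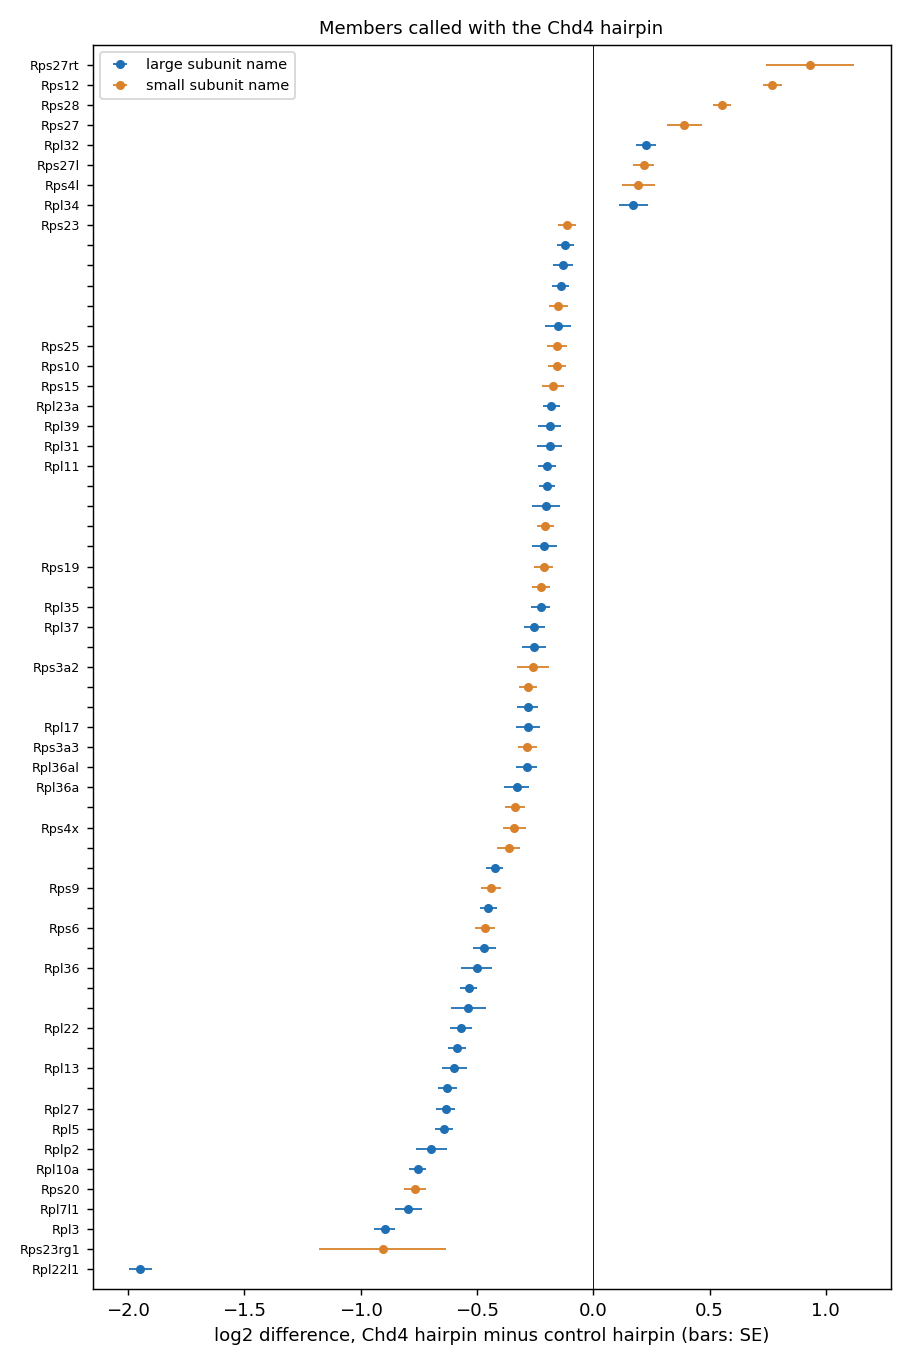
The 61 members called with the Chd4 hairpin are ordered by log2 difference (x axis, log2(value + 1) scale; bars are standard errors from limma), with large-subunit members in blue and small-subunit members in orange, and only members named in the text are labelled. Rpl22l1 stands apart at -1.95, and 8 members lie to the right of 0.

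Cell markers moved in the same table. Of 8 pluripotency markers 6 were called lower, with sums of 124900 and 123200 with the control and 77460 and 78740 with the Chd4 hairpin. The 5 primitive endoderm markers summed to 70.46 and 77.77 against 728.2 and 750.9; Dab2 carried most of the rise, while Gata4 and Sox17 were lower. Fibroblast markers summed to 363 and 279.6 against 612.8 and 703.9, with Col1a2 and Postn at or near 0 in the controls. Neural markers summed to 2547 and 2499 against 4043 and 4090, and trophoblast markers to 235.3 and 171.3 against 368.1 and 424.5. Their part in the ribosomal protein results was not tested, and in bulk RNA fewer cells of a type and less RNA per cell cannot be told apart.

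Other members have known special roles. Rpl10, which completes the large subunit, was not called in any comparison with a treatment or hairpin, with log2 differences from -0.05 to 0.06. Rpl38, known for its part in translation of Hox mRNAs, fell with IAA in the overexpression control (-0.17, adjusted p = 0.0144) and with wild-type CTCF (-0.14, adjusted p = 0.0467), and both calls were lost in fits of the groups compared alone (adjusted p = 0.0616 and 0.0734). Rps25, known for initiation at internal sites, fell at 24 h of CTCF degradation (-0.16, adjusted p = 0.0268; 0.0564 in a fit of these groups alone), with IAA in the overexpression control (-0.10) and with wild-type CTCF (-0.13), and with the Chd4 hairpin (-0.15, adjusted p = 0.0179), where quantile normalisation turned its sign (0.02, adjusted p = 0.58). Rpl39, a protein of the exit tunnel, was called lower with the Chd4 hairpin (-0.19, adjusted p = 0.0124) and in none of the other comparisons. That call was lost with quantile normalisation (-0.05, adjusted p = 0.326) and without either control library. Rpl3l, the muscle form of Rpl3, was at most 58.26 in any library and was not called. The rows Rpl6l and Rpl37rt were not called either. Rps23rg1 fell with the Chd4 hairpin (-0.91, SE 0.274, adjusted p = 0.0225), from 54.3 and 74.98 to 37.74 and 29.86, and Rps3a2 rose with RAD21 degradation (0.17 and 0.12) and fell with wild-type CTCF and IAA (-0.12) and with the Chd4 hairpin (-0.26), where quantile normalisation ended the call (-0.12, adjusted p = 0.15).

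Other genes of ribosome production were set beside the members by their counts. Of 48 nucleolar assembly genes, 14 rose and 3 fell at 12 h of CTCF degradation (median 0.16). At 24 h 17 rose and 3 fell (median 0.15), and in serum 12 rose and 9 fell. The shares that rose were 29.2%, 35.4% and 25%, beside 9.39%, 11.7% and 7.73% of all genes. The shares that fell were 6.25%, 6.25% and 18.8%, beside 8.4%, 10.8% and 9.25%. In the overexpression control 15 rose (31.2%, beside 12.8% of all genes) and 4 fell (8.33%, beside 12.5%) with IAA, where 37 members fell. With wild-type CTCF and IAA 20 rose (41.7%, beside 11.1%) and 1 fell (2.08%, beside 10.3%). With mutated CTCF and IAA 6 rose (12.5%, beside 8.31%) and 3 fell (6.25%, beside 7.92%). After 12 h of RAD21 degradation 4 of the 48 rose and 0 fell, where 16 members rose and 3 fell. Of all genes 6.66% were called higher and 6.35% lower there. At 24 h 1 of the 48 rose and 13 fell (median -0.12), where 18 members rose and 8 fell, beside 6.54% and 7.16% of all genes. Between 12 h and 24 h 0 rose and 18 fell, where 9 members rose and 13 fell, beside 7.67% and 8.26% of all genes. With the Chd4 hairpin 17 of the 48 rose and 13 fell (median 0.05), beside 33.5% and 33.8% of all genes. Translation factors whose mRNAs carry the same pyrimidine tract were mostly lower with that hairpin, where 24 of 28 fell and 2 rose (median -0.45). In the overexpression control with IAA 12 of 27 fell (44.4%, beside 12.5% of all genes) and 4 rose (14.8%, beside 12.8%). With wild-type CTCF and IAA 12 of 27 fell (44.4%, beside 10.3%) and 4 rose (14.8%, beside 11.1%). With mutated CTCF and IAA 6 fell (22.2%, beside 7.92%) and 3 rose (11.1%, beside 8.31%). After 24 h of CTCF degradation 9 of 27 rose (33.3%, beside 11.7% of all genes) and 1 fell (3.7%, beside 10.8%). Among 80 mitochondrial ribosomal protein genes 26 fell and 19 rose with the Chd4 hairpin (median -0.05). That is 56.2% called, below the 67.4% of all genes.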

How the data were processed

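RNA was extracted, mRNA was purified, and libraries were made with a commercial kit, per the labels' protocols. The submitters' processing notes name Trim Galore, Bowtie2, STAR, RSEM, DESeq2 and the build mm10, with no versions or roles given in the sources used here. The deposited values are a normalised count signal made by the authors, never negative and not whole, so no count test was run and read depth is unknown. RSEM estimates can divide reads between copies of a gene. Each of the 5 tables was normalised separately, so tests were made within a table. The CTCF AID table breaks off in its last line, which was dropped.

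For genes with a mean of at least 10, log2(value + 1) entered a linear model in limma 3.58.1 (R 4.3.3) with a mean trend and all groups of a table together. The p-values of all tested genes were adjusted by Benjamini-Hochberg, and 0.05 was the threshold of a call. Log2 differences are on that scale and understate changes of low genes. Members named were, per comparison, the 2 largest called rises and falls among rows whose higher group averaged 100 or more, and always the like-genes, Rpl5, Rpl11, the stalk genes, Rpsa, Rps6, Rps19, Rpl22, Rpl39, Rps27, Rpl10, Rpl38 and Rps25. Others are examples chosen after their values were seen. Members and lists were chosen with earlier results of these data known. Positions come from GENCODE M21. On a simulated table of 13685 genes with changes at 12 h of CTCF degradation, 81.8% of 2-fold, 32.8% of 1.5-fold and 1.49% of 1.2-fold changes were recovered. That table held 66, 67 and 67 changes of these sizes, while 2438 genes were called in the measured 12 h comparison. Whether its spread matched that of the libraries was not tested. These shares therefore do not give the sensitivity of the fits reported here. Alternatives covered the pseudocount, the filter, scaling, the groups fitted, a replicate block, single libraries left out, a fold threshold, and sums over genes that share a 50-base stretch, the last added after the data were seen. Some members are not reported here.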

Additional observations from a re-analysis of the deposited data

Results flagged for a closer look

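A difference in the effect of IAA between cell backgrounds was called for 3 results, each by a test of the interaction itself (limma, adjusted over all genes). With wild-type CTCF the effect stood above that of the control for Rpl36a by 0.28 and for Rplp0 by 0.217 on the log2 scale, and with mutated CTCF for Rpl36a by 0.234. In each case the control fell more. The wild-type CTCF libraries with IAA and the mutated CTCF libraries without IAA are those whose titles and treatment labels disagree.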

How the results depend on the processing

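Asking also for a log2 difference of at least 0.5 left 19 members with the Chd4 hairpin, 2 at 24 h of CTCF degradation, 2 in the overexpression control with IAA, and 0 in the other comparisons that had calls. Quantile normalisation moved the count to 17 at 12 h of CTCF degradation, 1 between its 12 h and 24 h, 12 for mutated CTCF against control without IAA, 1 for mutated against wild-type CTCF with IAA, and 2 for the interaction with mutated CTCF; Rps25 reversed to 0.024 (adjusted p = 0.58) with the Chd4 hairpin. Fitting only the groups compared gave 22 in the overexpression control, 1 for mutated CTCF without IAA and 0 for the interaction with mutated CTCF. The causes were not tested.

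Leaving out 1 library assumes that the lone sample varies like the others. The counts ran from 1 to 2 at 12 h and 10 to 24 at 24 h of CTCF degradation, 6 to 17 in serum, 21 to 36 in the overexpression control, 17 to 23 with wild-type and 1 to 9 with mutated CTCF, 4 to 7, 7 to 10 and 7 to 11 for RAD21 at 12 h, 24 h and between them, 0 to 3 for each interaction, 2 to 7 for mutated and 0 to 1 for wild-type CTCF without IAA, and 46 to 63 with the Chd4 hairpin.

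Over all genes, deviations of same-numbered libraries correlated at -0.063 to 0.102 across groups. Such low values cannot show that no genes differed by replicate number. The rows Rpl37rt and Rpl6l, described below, did so in the overexpression groups without IAA. With the replicate block, counts stayed within 1.5 times (12 members at 12 h of CTCF degradation, 61 with the Chd4 hairpin), and Rpl36a lost its interaction with mutated CTCF (0.234, adjusted p = 0.0525). Grouping by the treatment label could be run only for wild-type CTCF against control without IAA. Of 1276 alternatives for single genes 242 lost the call, 46 of them among the 808 that kept all libraries. Depth is unknown, so no limit of detection could be given.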

Other observations

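The low row Rpl37rt differed between replicates of the same groups. Without IAA its values were 306.7 and 601.4 in the overexpression control, 253.2 and 617.3 with wild-type CTCF and 254.6 and 672.8 with mutated CTCF, replicate 2 being the higher one in all 3 groups. With IAA the 6 libraries lay between 205.4 and 305.2. The row Rpl6l had a like pattern without IAA, with 24.94 and 56, 30.15 and 60.26, and 30.38 and 66.86. Neither was called in any comparison of that table.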
